A study of Mus musculus with 9 samples.

Results

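The genes described here encode the mitochondrial respiratory chain and the ATP synthase. They were taken by symbol from the array platform's annotation: names that start with Nduf, Uqcr or Atp5, the Cox4 to Cox8 subunits of cytochrome c oxidase, Sdha to Sdhd, Cycs and Cyc1. Probe sets with 1 symbol were kept, and each gene was read from the probe set with the highest mean log2 value over the 9 arrays. This gave 91 genes of the 19938 genes with such a probe set. Of the 28853 probe sets 118 belonged to these genes, and only the brightest of each gene was read. Complex I had 34 of the genes, complex II 4, complex III 9, cytochrome c 1, complex IV 18 and the ATP synthase 17, and 8 were not subunits (7 assembly factors named Ndufaf and Cox7a2l). Gene 1.0 ST expression arrays measured 3 mouse lines, each on 3 arrays: embryonal carcinoma cells (P19), embryonic stem (ES) cells (R1) and P19-derived stem cells, which came from blastocysts cloned from P19 nuclei. The sample labels give the P19-derived cells no clone name, the study's array tables name the line P19 NTES7, and these cells are taken here as 1 line. All lines grew in 1 medium, with fetal bovine serum and leukemia inhibitory factor, and the labels name no treatment or introduced allele. By the study's methods the pluripotent stem cell lines, unlike P19, were kept on a layer of mitomycin-treated mouse embryonic fibroblasts, and the ES cells used for RNA were collected free of feeders. The arrays are labelled as biological replicates, but no source used here says that each had its own culture, and p-values therefore reflect only how much the arrays of a line varied.

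The respiratory chain passes electrons from NADH and succinate to oxygen. Complex I takes them from NADH and complex II from succinate, ubiquinone carries them to complex III, cytochrome c carries them on to complex IV, and complex IV reduces oxygen. Complexes I, III and IV pump protons across the inner membrane, and the ATP synthase uses the proton gradient to make ATP. Most subunits are encoded in the nucleus and imported, while a small set, which includes the catalytic core of complex IV, is encoded by mitochondrial DNA. Several nuclear subunits of complex IV exist in isoforms with different tissue distributions. Pluripotent cells in culture are known for relying strongly on glycolysis, and naive and primed states differ in how much they respire.

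Array medians lay between 16.5 and 17.5 (RMA intensity, linear scale), so that an intensity near 17 stands for the middle of all probe sets and gives little evidence of a transcript. Arrays 1 and 2 of R1 were much alike (SD of their log2 difference over all probe sets 0.125, against 0.293 and 0.281 to array 3), and so, less closely, were arrays 1 and 2 of P19 (0.168 against 0.237 and 0.217). Counts are therefore also given with each of these pairs averaged to 1 array, a setting chosen after the data were seen. Of 24 fibroblast markers, 23 were higher in R1 than in P19, 21 were higher and 1 lower in the P19-derived cells than in P19, and the summed intensity of the list was 1290 to 1318 on the P19 arrays, 3248 to 3903 on the arrays of the P19-derived cells and 4773 to 5437 on the R1 arrays. Most of these markers were thus lower in P19, the line not kept on fibroblasts, than in the other lines. Between the lines kept on fibroblasts, 15 of the 24 were lower and 0 higher in the P19-derived cells than in R1. The part of the culture in these differences was not tested, and for P19 against the other lines culture and line cannot be told apart. Of 14 markers of pluripotent cells 10 were higher and 2 lower in R1 than in P19, and 7 were higher and 3 lower in the P19-derived cells than in P19. Counts of both marker lists are by limma at an adjusted p under 0.05. By this test 14.8% of all probe sets were higher and 17.4% lower in R1 than in P19. For the P19-derived cells against P19 these shares were 8.03% and 10.7%. The 13 subunits encoded by mitochondrial DNA were not analysed here, as a search by symbol found 0 of them among the probe sets with 1 symbol. In cultured cells measured in bulk, fewer cells of a kind and less RNA in each cell cannot be told apart.

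Of the 91 genes, 39 differed between R1 and P19, 17 higher and 22 lower in R1 (limma, Benjamini-Hochberg adjusted p under 0.05, written below as past the test). Over all probe sets 32.2% were past the test in this comparison, 14.8% higher and 17.4% lower. The members' share was 42.9%, and among the 14426 probe sets brighter than the median probe set, where most members lie, it was 48.7%. Between the P19-derived cells and P19, 6 members were higher and 4 lower, a share of 10.99%, where all probe sets gave 18.8% (8.03% higher and 10.7% lower) and the bright ones 29.5%. Between the P19-derived cells and R1, 17 members were higher and 12 lower, which is 31.9% beside 25.3% of all probe sets (13.2% higher and 12.2% lower) and 40.5% of the bright ones. The members' shares lay below those of the bright probe sets in each comparison. The comparisons share arrays and are not independent. With the alike arrays averaged, the counts were 10 higher and 12 lower for R1 against P19, 3 higher and 2 lower for the P19-derived cells against P19, and 10 higher and 7 lower for the P19-derived cells against R1.

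Differences were small for most members. The difference between R1 and P19 was within 1.5-fold for 76 of the 91 genes, with a median log2 difference of -0.08 (all probe sets 0.03, bright probe sets -0.06). For the P19-derived cells against P19 it was within 1.5-fold for 88 genes, with a median of -0.02 (0.03 and -0.06), and against R1 for 82 genes, with a median of 0.04 (0.01 and 0.01). A total of 43 genes were past the test in no comparison, among them Cycs (cytochrome c itself) and Atp5a1 and Atp5b, subunits of the catalytic part of the ATP synthase. With an adjusted p under 0.01 and a fold over 2, 4 genes were called: Cox6b2 and Ndufa4l2 higher in R1 than in P19, and Ndufs5 and Ndufaf6 lower. Of all probe sets, 7.40% met this rule in R1 against P19 (3.70% higher and 3.70% lower). In the P19-derived cells against P19 the call was Ndufa4l2, higher (2.91% of all probe sets, 1.55% higher and 1.36% lower). Against R1 the calls were Ndufs5, higher, and Cox6b2, lower (4.52% of all probe sets, 1.99% higher and 2.53% lower). The ranges of the R1 arrays and of the P19 arrays were apart for 53 of the 91 members and for 45.3% of all probe sets. The corresponding numbers without overlap were 31 for the P19-derived cells against P19 (34.4% of all probe sets) and 45 for them against R1 (36.6%).

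**Figure D1:**
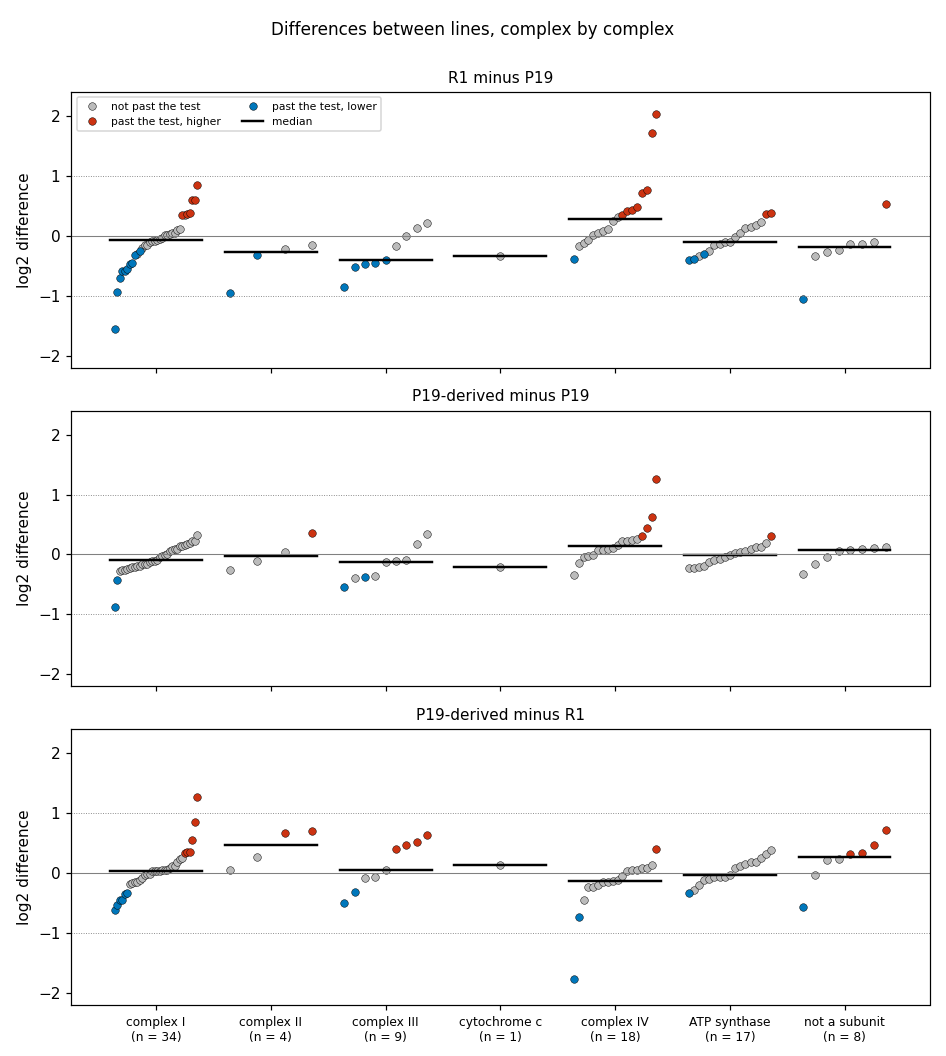
Log2 difference (vertical axis) of each of the 91 genes in the 3 comparisons between lines (panels), grouped by complex (horizontal axis) and sorted within it. Each point is 1 gene, colour marks the limma test at an adjusted p under 0.05, the bar is the median, and dotted lines mark a 2-fold difference. Complex III lies mostly below 0 and complex IV mostly above 0 in R1 minus P19, with medians of -0.40 and 0.28, and most points of the P19-derived minus P19 panel lie near 0.

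**Figure D2:**
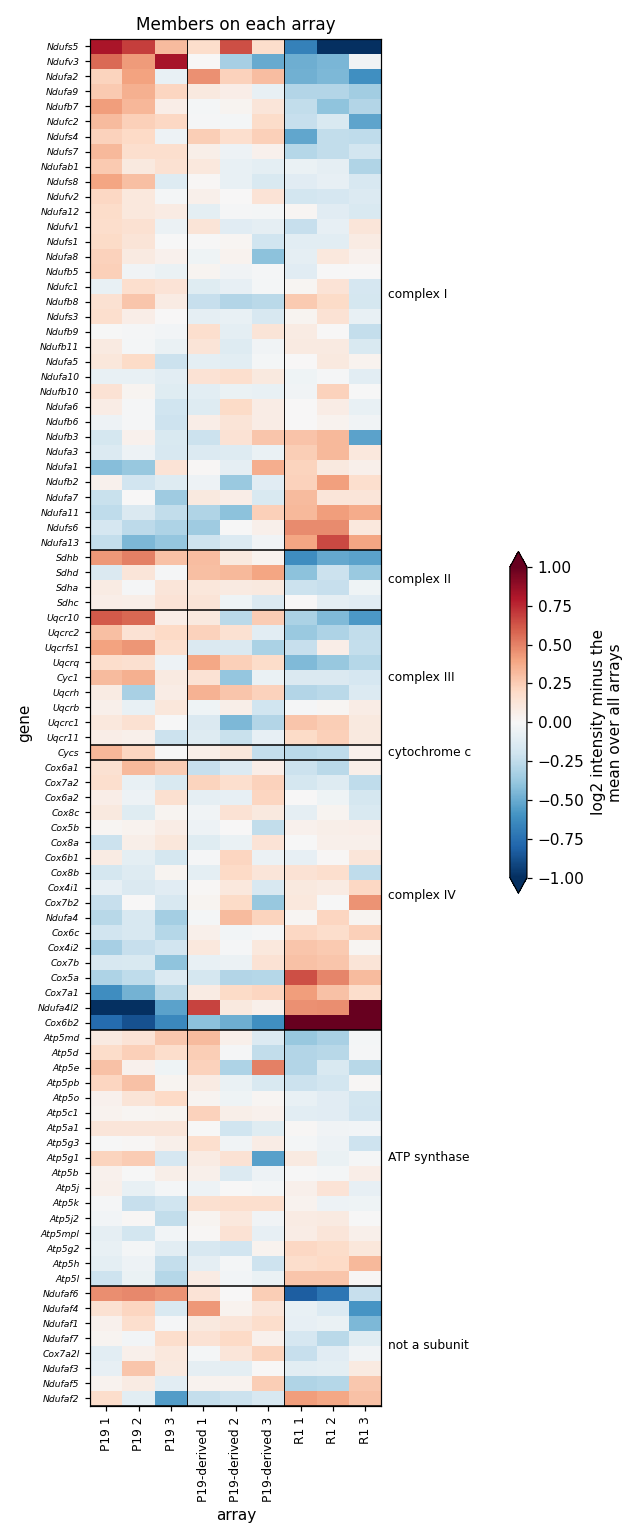
Log2 intensity of each gene (rows, sorted within a complex by the R1 minus P19 difference) on each of the 9 arrays (columns), minus the gene's mean over all arrays; the colour scale ends at -1 and 1 and darker values beyond it are not resolved. Arrays of a line look alike, and Ndufs5, Sdhb, Ndufa4l2 and Cox6b2 stand out between P19 and R1.

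The promoters of nuclear genes for the chain are known to hold sites for NRF1, for GABP and other ETS factors, for estrogen-related receptors, for YY1 and for CREB. RefSeq promoter windows (GRCm38.p6, 250 bases before to 50 after the start) were found for 74 of the 91 genes and were searched on both strands for the letters of each motif. The NRF1 motif GCGCANGCG stood in 22 of the 74 windows (29.7%), against 7.03% of the windows of all 27025 genes. The ETS motif CCGGAAG was in 18 windows (24.3% against 9.93%), the YY1 motif AAGATGGCG in 7 (9.46% against 1.64%), the CREB motif TGACGTCA in 5 (6.76% against 2.03%) and the estrogen-related receptor motif AAGGTCA in 7 (9.46% against 5.38%). No motif was found in the windows of 32 members. NRF1 letters were in 4 of 14 windows of genes higher in R1 than in P19, in 3 of 17 of those lower and in 15 of 43 of those not past the test. Of the ATP synthase genes 7 of 15 had the NRF1 letters, and of the complex IV genes 1 of 12. A match of letters does not show that a factor binds there.

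Of the 34 genes of complex I, the NADH dehydrogenase, 6 were higher and 10 lower in R1 than in P19, with a median of -0.08. Among the bright probe sets 19.7% were higher and 29.0% lower (14.8% and 17.4% of all), and the counts of complex I are near those shares. The largest fall was that of Ndufs5, an accessory subunit on the intermembrane side. Its intensity was 46.6, 42.8 and 32.9 on the P19 arrays, 30.0, 41.5 and 30.0 on those of the P19-derived cells, and 16.6, 12.1 and 13.1 on the R1 arrays. All R1 arrays lay below every other array and below or near the array median, so the measured folds against R1 can be read only as lower limits. Ndufs5 was lower in R1 than in P19 by 2.93-fold (log2 difference -1.55 ± 0.17 SE, adjusted p = 6.61e-06) and higher in the P19-derived cells than in R1 by 2.42-fold (log2 difference 1.28 ± 0.17, adjusted p = 6.24e-05). The P19-derived cells and P19 overlapped and were not told apart (log2 difference -0.27, adjusted p = 0.310). A second probe set, which the annotation gives to Ndufs5 and to its pseudogene Ndufs5-ps and which was not counted among the members, averaged 33.4 ± 4.81 over the P19 arrays and 15.5 ± 4.77 over the R1 arrays (SD, n = 3, as in all further means; log2 difference -1.14, adjusted p = 0.000714). The 250 bases before the start of Ndufs5 (chr4:123718187-123718436, minus strand, GRCm38.p6) are shown because this gene had the largest fall, and the capitals mark an estrogen-related receptor motif, read on the opposite strand, and an NRF1 motif.
Ndufs5: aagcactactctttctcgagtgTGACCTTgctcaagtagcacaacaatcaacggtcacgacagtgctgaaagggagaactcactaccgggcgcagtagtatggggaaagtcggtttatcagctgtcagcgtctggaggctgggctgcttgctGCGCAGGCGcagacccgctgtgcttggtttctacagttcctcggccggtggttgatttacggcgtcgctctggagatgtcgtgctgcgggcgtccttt

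Ndufv3, an accessory subunit of the NADH-oxidising part of complex I, was lower in both stem cell lines than in P19. Its P19 arrays read 132, 120 and 158, the arrays of the P19-derived cells 89.5, 70.9 and 62.8, and the R1 arrays 63.8, 64.9 and 87.0. No array of the stem cell lines reached the lowest P19 array. The log2 difference from P19 was -0.93 ± 0.16 in R1 (1.91-fold, adjusted p = 0.000392) and -0.88 ± 0.16 in the P19-derived cells (1.84-fold, adjusted p = 0.00133), and the stem cell lines were not told apart from each other (0.05, adjusted p = 0.872). Ndufb8, a subunit of the membrane arm, was at 67.2 ± 1.49 in the P19-derived cells, below both P19 (90.7 ± 6.47, log2 difference -0.43, adjusted p = 0.0203) and R1 (86.5 ± 13.5, log2 difference -0.35, adjusted p = 0.0430). The Ndufb8 difference from P19 was no longer past the test without array 1 or 2 of P19 or array 2 or 3 of the P19-derived cells (adjusted p up to 0.0954), and that from R1 stayed past it without 2 of the 9 arrays only (adjusted p up to 0.192). Neither was past the test with quantile normalization.

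The genes of complex I that were higher in R1 than in P19 were all accessory subunits. Ndufa13, also known as GRIM-19, rose most: it read 29.8, 25.7 and 26.9 on the P19 arrays, 30.5, 32.0 and 34.3 on those of the P19-derived cells and 46.3, 55.7 and 46.1 on the R1 arrays. R1 stood above both other lines without overlap, by a log2 difference of 0.84 ± 0.11 from P19 (1.79-fold, adjusted p = 3.34e-05), and the P19-derived cells differed from R1 by -0.61 ± 0.11 (adjusted p = 0.000778). Ndufs6, a zinc-binding subunit added late in assembly, was at 208 ± 10.04 in P19, 231 ± 33.6 in the P19-derived cells and 316 ± 44.1 in R1, a log2 difference of 0.60 ± 0.13 for R1 against P19 (adjusted p = 0.00287). Its difference between the P19-derived cells and R1 (-0.45, adjusted p = 0.0209) was lost without array 1 of the P19-derived cells or array 1 or 2 of R1 (adjusted p up to 0.0913). Ndufa11, a membrane-arm subunit, was at 95.0 ± 4.03 in P19 and 143 ± 4.49 in R1 (log2 difference 0.59, adjusted p = 0.00530). The other 3 that rose in R1, Ndufa3, Ndufa7 and Ndufb2, had log2 differences of 0.34, 0.38 and 0.36. Among the falls, Ndufa2, a thioredoxin-like subunit, read 108, 123 and 88.2 in P19, 127, 109 and 115 in the P19-derived cells and 66.6, 68.0 and 60.7 in R1. It was thus lower in R1 than in either other line (log2 difference -0.70 ± 0.12 from P19, adjusted p = 0.000551). For Ndufa2 the P19-derived cells were above R1 by 0.85 ± 0.12 (adjusted p = 0.000161).

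The conserved core subunits of complex I that are encoded in the nucleus include those that carry the flavin and the iron-sulfur clusters. These nuclear core subunits were grouped after their values had been seen. All 6 that were measured had a log2 difference below 0 in R1 against P19, from -0.46 for Ndufs7 to -0.05 for Ndufs3. Of the 6, 2 fell past the test (Ndufs7 and Ndufv2, limma adjusted p = 0.00149 and 0.0473). Among all probe sets 17.4% were lower past the test, and among the bright ones, whose median was -0.06, 29.0%. The share of all probe sets below 0 was not counted. Ndufs1, which holds several of these clusters and was the brightest probe set of the complex, was at 312 ± 20.7 in P19, 278 ± 23.0 in the P19-derived cells and 281 ± 21.3 in R1, and its lines overlapped (log2 difference of R1 from P19 -0.15, adjusted p = 0.312). Of the 28 accessory subunits 14 lay above and 14 below 0, with 6 higher and 8 lower past the test. In the P19-derived cells against R1 complex I had 6 higher and 6 lower genes, where 13.2% of all probe sets were higher and 12.2% lower. With the alike arrays averaged, 3 genes of complex I were higher and 7 lower in R1 than in P19.

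Complex II, succinate dehydrogenase, has 4 subunits, all encoded in the nucleus, and is also an enzyme of the tricarboxylic acid cycle. All 4 had lower R1 arrays than P19 arrays without overlap (22.6% of all probe sets), and 2 were lower past the test (17.4% of all probe sets and 29.0% of the bright ones). Sdhb, the iron-sulfur subunit, read 104, 109 and 93.9 in P19, 95.2, 82.1 and 78.5 in the P19-derived cells and 50.01, 53.8 and 53.1 in R1. All R1 arrays lay below all others, and the difference from P19 was -0.96 ± 0.10 on the log2 scale (1.95-fold, adjusted p = 7.03e-06). The P19-derived cells were above R1 by 0.70 ± 0.10 (1.63-fold, adjusted p = 0.000195) and overlapped with P19 (-0.26, adjusted p = 0.102).

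Sdhd, a membrane anchor that binds ubiquinone together with Sdhc, had another order of line means. Its arrays read 82.8, 99.4 and 90.8 in P19, 113, 115 and 121 in the P19-derived cells and 69.0, 78.6 and 70.7 in R1. The P19-derived cells were highest and R1 lowest, without overlap between any of the lines. The log2 difference of the P19-derived cells was 0.35 ± 0.10 from P19 (adjusted p = 0.0249) and 0.68 ± 0.10 from R1 (adjusted p = 0.000203), and that of R1 from P19 was -0.32 ± 0.10 (adjusted p = 0.0251). The differences from P19 were the weaker ones: with the alike arrays averaged the adjusted p was 0.0693 for the P19-derived cells and 0.0885 for R1, and each was lost on leaving out array 3 of P19 and further arrays (up to 0.118 and 0.124). Sdha, which holds the flavin and oxidises succinate, was at 353 ± 16.7 in P19, 363 ± 2.71 in the P19-derived cells and 303 ± 22.5 in R1 (R1 against P19 -0.23, adjusted p = 0.0843). Sdhc was at 271 ± 7.90, 253 ± 24.9 and 245 ± 10.8 in the same order (-0.15, adjusted p = 0.278). Sdhb and Sdhd are shown as genes of the same complex whose line means fell in different orders. R1 was lowest for both, and for Sdhb the P19-derived cells and P19 overlapped. Both windows held the ETS letters, and that of Sdhd also the NRF1 and estrogen-related receptor letters. Of the bases before the start, shown here, those of Sdhb (chr4:140961021-140961270, plus strand) hold no whole motif, as its ETS letters are not wholly before the start. Those of Sdhd (chr9:50603850-50604099, minus strand) hold the NRF1 letters and, on the opposite strand, the ETS letters, given in capitals, but not the whole receptor motif.
Sdhb: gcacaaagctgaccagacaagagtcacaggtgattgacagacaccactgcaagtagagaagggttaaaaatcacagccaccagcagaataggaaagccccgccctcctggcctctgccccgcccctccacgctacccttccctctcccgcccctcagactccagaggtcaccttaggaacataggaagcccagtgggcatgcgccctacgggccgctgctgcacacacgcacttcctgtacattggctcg
Sdhd: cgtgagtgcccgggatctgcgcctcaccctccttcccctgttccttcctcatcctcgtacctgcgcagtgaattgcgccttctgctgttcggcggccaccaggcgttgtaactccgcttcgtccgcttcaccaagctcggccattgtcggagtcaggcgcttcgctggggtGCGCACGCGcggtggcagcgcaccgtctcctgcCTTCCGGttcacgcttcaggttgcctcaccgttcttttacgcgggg

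Complex III, the cytochrome bc1 complex, had 5 of 9 genes lower in R1 than in P19, with a median of -0.40. No gene of it was higher by limma, also at an unadjusted p under 0.05 (5 lower and 0 higher). Among all probe sets 17.4% were lower, and among the bright ones 29.0%. Uqcr10, a small subunit, read 106, 104 and 72.9 in P19, 74.3, 57.9 and 82.9 in the P19-derived cells and 55.9, 51.4 and 46.8 in R1. All R1 arrays were below all others, while P19 and the P19-derived cells overlapped. The log2 difference of R1 from P19 was -0.86 ± 0.16 (1.82-fold, adjusted p = 0.000828). Uqcrc2, a core protein and the brightest probe set of the complex, was at 494 ± 27.5 in P19, 454 ± 53.4 in the P19-derived cells and 343 ± 15.2 in R1 (R1 against P19 -0.53 ± 0.11, adjusted p = 0.00156). Uqcrq was at 97.8 ± 8.27, 110 ± 8.17 and 70.9 ± 3.87, lower in R1 than in P19 (-0.46, adjusted p = 0.00306) and higher in the P19-derived cells than in R1 (0.64 ± 0.10, adjusted p = 0.000363). Cyc1, the cytochrome c1 that hands electrons to cytochrome c, was at 291 ± 28.4, 230 ± 41.9 and 220 ± 2.299 (R1 against P19 -0.40, adjusted p = 0.0283, lost without array 1 or 2 of P19 or of R1, with p up to 0.108, with quantile normalization, and with the alike arrays averaged, where it was 0.169). With the alike arrays averaged 3 genes were lower, and Uqcrq had an adjusted p of 0.0587.

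The Rieske iron-sulfur protein Uqcrfs1 was lower in both stem cell lines. It read 52.5, 53.9 and 44.6 in P19, 36.1, 36.04 and 32.0 in the P19-derived cells and 33.8, 41.6 and 33.6 in R1. Every array of the stem cell lines was below every P19 array, with a log2 difference from P19 of -0.54 ± 0.12 in the P19-derived cells (1.45-fold, adjusted p = 0.00509) and -0.47 ± 0.12 in R1 (1.39-fold, adjusted p = 0.00605). The core protein Uqcrc1 was low in the P19-derived cells alone: it was at 368 ± 20.8 in P19, 283 ± 29.8 in the P19-derived cells and 401 ± 26.2 in R1. Its difference from R1 was -0.50 ± 0.11 (adjusted p = 0.00273), and that from P19 was -0.38 ± 0.11 (adjusted p = 0.0220, up to 0.0989 without array 1 or 2 of P19 or array 2 or 3 of the P19-derived cells, and 0.111 with the alike arrays averaged). The hinge protein Uqcrh was higher in the P19-derived cells (403 ± 16.2) than in R1 (282 ± 16.9, log2 difference 0.52, adjusted p = 0.00463), with 320 ± 48.6 in P19. In all, complex III had 4 genes higher and 2 lower in the P19-derived cells than in R1 (13.2% and 12.2% of all probe sets). Those of Uqcr10 and Uqcr11 were not past the test without 6 and without 5 of the 9 arrays (adjusted p up to 0.178 and 0.140). Cytochrome c, encoded by Cycs, read 395, 363 and 313 in P19, 326, 339 and 265 in the P19-derived cells and 260, 263 and 322 in R1. Its lines overlapped, and R1 against P19 had a log2 difference of -0.34 ± 0.13 with an adjusted p of 0.0597.

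**Figure D3:**
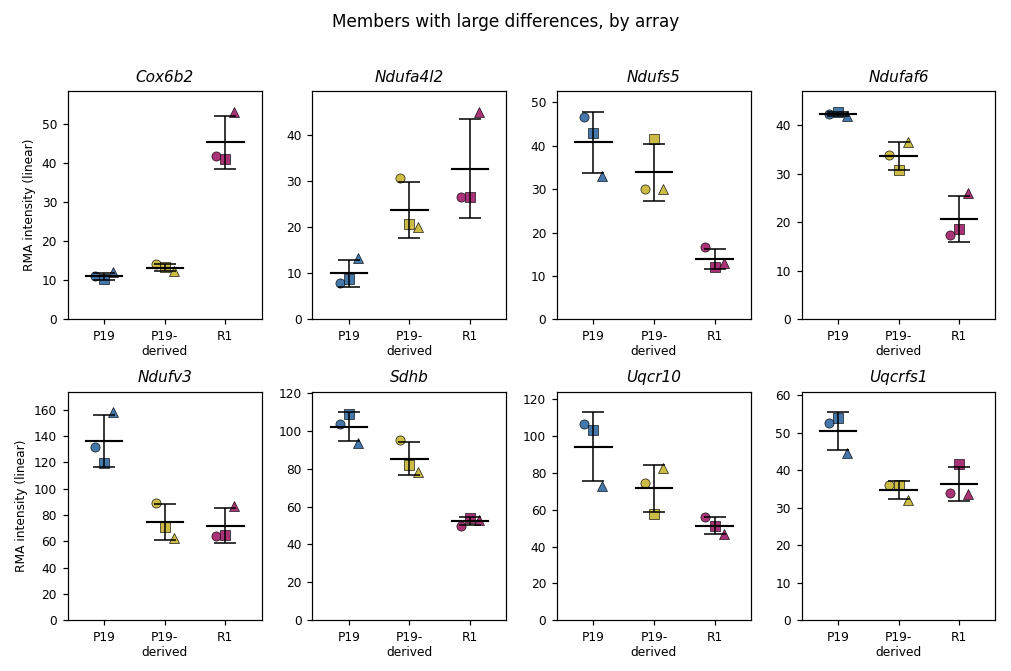
RMA intensity on the linear scale (vertical axis, from 0) of 8 members on each array, by line (horizontal axis). Circles, squares and triangles are arrays 1, 2 and 3 of a line, bars are the mean and SD of 3 arrays, and panels have their own scales. Cox6b2 is high on the R1 arrays alone, Ndufa4l2 is low on the P19 arrays, and Ndufs5, Ndufaf6, Sdhb and Uqcr10 have their lowest arrays in R1.

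Complex IV, cytochrome c oxidase, had more genes higher than lower: 8 of its 18 genes were higher and 1 lower in R1 than in P19, with a median of 0.28. Ndufa4 and its paralog Ndufa4l2 were counted in complex IV, and both were among the 8. Also among the 8 were Cox6b2, Cox7a1 and Cox4i2, which like Ndufa4l2 were below or near the array median in P19. The rest of the 8 were Cox5a, Cox6c and Cox7b. Among all probe sets 14.8% were higher in R1, and among the bright ones 19.7%. The largest rise was that of Cox6b2, the isoform of subunit VIb known from testis. It read 11.01, 10.3 and 12.0 in P19, 14.1, 13.4 and 12.3 in the P19-derived cells and 41.8, 41.1 and 53.2 in R1. The P19 and P19-derived arrays were below the array median, so the measured folds against them can be read only as lower limits, and all R1 arrays were well above it. The log2 difference of R1 was 2.02 ± 0.12 from P19 (4.07-fold, adjusted p = 1.93e-08), and the P19-derived cells differed from R1 by -1.76 ± 0.12 (3.40-fold lower, adjusted p = 1.37e-07) and from P19 by 0.26, not past the test (adjusted p = 0.162). Cox6b1, the common isoform, was at 170 ± 15.6 in P19, 184 ± 19.1 in the P19-derived cells and 179 ± 12.7 in R1, with overlapping lines (R1 against P19 0.08, adjusted p = 0.615). Of 14 markers of spermatogenic cells 2 were higher in R1 than in P19, Cyct and Ddx4, a share near the 14.8% of all probe sets, and Ddx4 was also higher in the P19-derived cells (28.9 ± 4.82 beside 10.2 ± 1.62 in P19 and 45.1 ± 8.56 in R1). The list summed to 178 to 189 on the P19 arrays, 200.4 to 204 on those of the P19-derived cells and 242 to 281 on the R1 arrays, and its part in the Cox6b2 result was not tested. The windows of the isoform pair are shown because 1 isoform rose and the other was not past the test. The 250 bases before the start of Cox6b1 (chr7:30626115-30626364, minus strand) held an ETS motif on the opposite strand, in capitals, and those of Cox6b2 (chr7:4753095-4753344, minus strand) held none of the motifs.
Cox6b1: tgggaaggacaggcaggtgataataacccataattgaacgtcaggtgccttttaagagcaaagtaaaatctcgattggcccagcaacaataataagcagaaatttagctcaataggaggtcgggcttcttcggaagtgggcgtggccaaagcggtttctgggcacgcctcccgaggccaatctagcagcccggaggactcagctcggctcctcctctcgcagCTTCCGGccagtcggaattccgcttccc
Cox6b2: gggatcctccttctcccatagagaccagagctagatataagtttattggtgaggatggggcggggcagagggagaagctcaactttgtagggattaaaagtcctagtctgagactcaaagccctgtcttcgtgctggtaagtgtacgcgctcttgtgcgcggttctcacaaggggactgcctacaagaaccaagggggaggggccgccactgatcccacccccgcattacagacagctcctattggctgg

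Ndufa4l2, the paralog of the complex IV subunit Ndufa4 and a known hypoxia-induced gene, was low on the P19 arrays. It read 7.93, 8.68 and 13.3 in P19, 30.8, 20.7 and 20 in the P19-derived cells and 26.5, 26.7 and 45.2 in R1. Every array of the stem cell lines lay above the P19 arrays, which were below the array median, and the stem cell lines overlapped. The measured folds against P19 are therefore lower limits. The log2 difference from P19 was 1.71 ± 0.24 in R1 (3.27-fold, adjusted p = 6.88e-05) and 1.27 ± 0.24 in the P19-derived cells (2.4-fold, adjusted p = 0.00183). The latter stayed past the test but not called without array 1 or 2 of P19 or array 1 of the P19-derived cells (adjusted p = 0.0116, 0.0109 and 0.0111). Ndufa4 itself was at 160 ± 9.996 in P19, 217 ± 25.1 in the P19-derived cells and 204 ± 15.9 in R1. Its differences from P19 were 0.43 (adjusted p = 0.0133, 0.0658 without array 2 of the P19-derived cells) and 0.35 (adjusted p = 0.0272, lost without array 1 or 3 of P19 or array 2 of R1, up to 0.130, and 0.115 with the alike arrays averaged).

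Other isoforms known from particular tissues were also lowest in P19. Cox7a1, the heart and muscle isoform, read 16.1, 17.9 and 20.4 in P19, 26.3, 28.2 and 28.7 in the P19-derived cells and 33.1, 30.3 and 28.0 in R1. P19 was lowest without overlap, and the stem cell lines overlapped. Arrays 1 and 2 of P19 lay near the array median, so the measured folds against P19 may be lower limits. The log2 difference of Cox7a1 from P19 was 0.75 ± 0.11 in R1 (1.69-fold, adjusted p = 0.000110) and 0.62 ± 0.11 in the P19-derived cells (1.54-fold, adjusted p = 0.00128). Cox4i2, the isoform known from lung and from low oxygen, was dim in all lines, at 16.6 ± 0.832 in P19, 20.7 ± 0.965 in the P19-derived cells and 22.5 ± 2.20 in R1. Its log2 difference was 0.43 in R1 (adjusted p = 0.00435, 0.0734 with the alike arrays averaged) and 0.32 in the P19-derived cells (adjusted p = 0.0447, up to 0.159 and past the test without 1 of the 9 arrays only). The fibroblast markers, whose sums are given above, were lowest in P19 and highest in R1. Of 15 markers of striated muscle 7 were higher in R1 than in P19 and 1 was higher in the P19-derived cells than in P19. Over all probe sets 14.8% and 8.03% were higher in these comparisons. The sums of the muscle markers were 198 to 211 in P19, 241 to 259 in the P19-derived cells and 220.4 to 364 in R1. The part of either list in the results for Ndufa4l2, Cox7a1 and Cox4i2 was not tested. The common isoform Cox4i1 was at 288 ± 5.74, 309 ± 28.6 and 341 ± 16.4 in P19, the P19-derived cells and R1 (R1 against P19 0.24, adjusted p = 0.0735). Cox7a2, the common isoform of subunit VIIa, had its highest mean in the P19-derived cells (163 ± 3.91) and was lower in R1 (124 ± 5.33, log2 difference 0.40, adjusted p = 0.0108). It was at 140 ± 16.9 in P19, which overlapped with the P19-derived cells and was not told apart from them (log2 difference 0.23, limma adjusted p = 0.153).

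**Figure D4:**
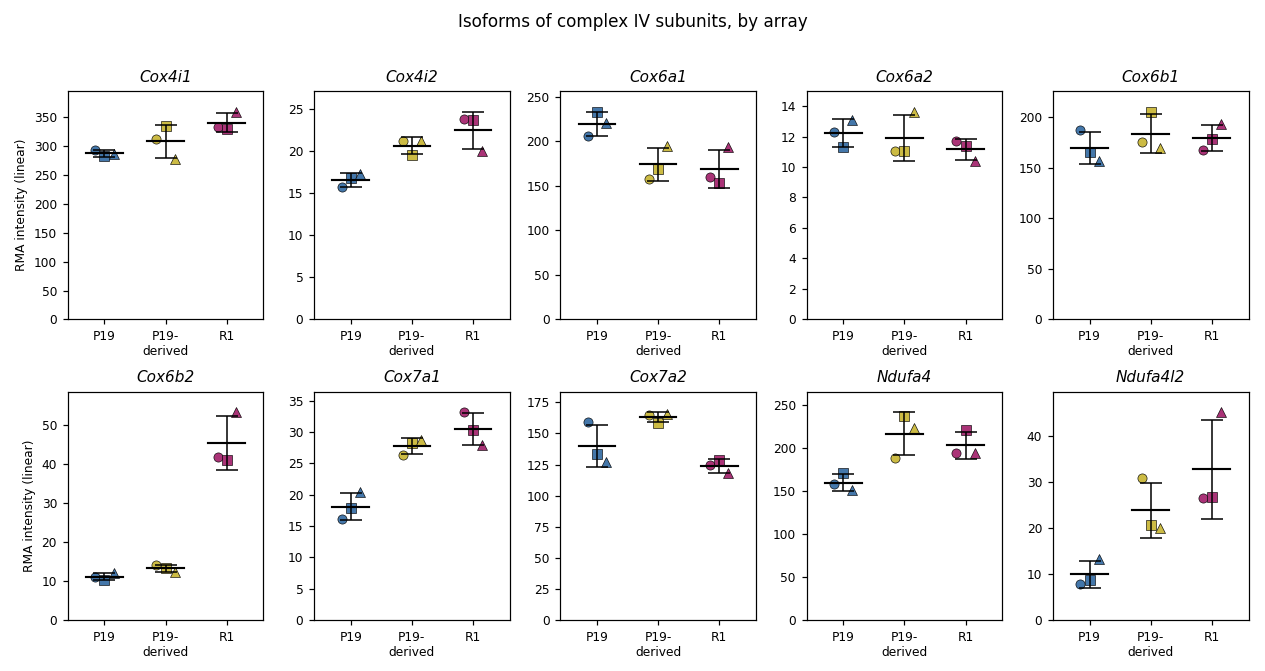
RMA intensity on the linear scale (vertical axis, from 0, with its own scale in each panel) of common and tissue-restricted isoforms of complex IV subunits on each array, by line (horizontal axis). Circles, squares and triangles are arrays 1, 2 and 3, and bars are the mean and SD of 3 arrays. The P19 arrays are the lowest for Cox4i2, Cox7a1 and Ndufa4l2, the R1 arrays are the highest for Cox6b2, and the lines overlap for Cox6a2 and Cox6b1.

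The remaining isoforms stayed near the bottom of the arrays. Cox6a2, the heart and muscle isoform of subunit VIa, was between 10.4 and 13.6 on all 9 arrays, and Cox8b and Cox8c were also below the array median in all lines. Cox7b2 was at 15.1 ± 1.28 in P19, 16.1 ± 3.16 in the P19-derived cells and 18.9 ± 3.16 in R1 (R1 against P19 0.31, adjusted p = 0.139). Cox6a1, the common isoform of VIa, was the only complex IV gene lower in R1 than in P19, at 220 ± 13.5 in P19, 174 ± 18.8 in the P19-derived cells and 169 ± 21.3 in R1 (R1 against P19 -0.39 ± 0.12, adjusted p = 0.0201). This was no longer past the test with quantile normalization, with the alike arrays averaged (adjusted p = 0.147), and without array 2 or 3 of P19 or array 1 or 2 of R1 (up to 0.0981). Cox8a, the common isoform of subunit VIII, was at 105 ± 12.6, 104 ± 9.82 and 108 ± 2.37 and was past the test in no comparison.

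Among the subunits of complex IV without such isoforms, Cox5a differed most. This subunit of the ring around the catalytic core read 67.3, 69.8 and 75.5 in P19, 73.6, 67.7 and 68.2 in the P19-derived cells and 130, 117 and 104 in R1. R1 stood above both other lines, which overlapped, with a log2 difference of 0.71 ± 0.10 from P19 (1.64-fold, adjusted p = 0.000115), and the P19-derived cells differed from R1 by -0.73 ± 0.10 (adjusted p = 0.000138). Cox7b, for which Cox7b2 is the other isoform, was at 191 ± 18.4 in P19, 226 ± 19.2 in the P19-derived cells and 265 ± 16.0 in R1 (R1 against P19 0.47, adjusted p = 0.00358). Cox6c, the brightest probe set of the complex, was at 398 ± 18.3, 463 ± 12.2 and 532 ± 11.7 in the same order (0.42, adjusted p = 0.00210), with no overlap between lines. It was not past the test when all probe sets of the gene were averaged (adjusted p = 0.0555). With the alike arrays averaged 6 genes of complex IV rose in R1 against P19.

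The genes of the ATP synthase differed little between lines. All 17 genes were within 1.5-fold in every comparison, and the medians were -0.10 for R1 against P19, -0.01 for the P19-derived cells against P19 and -0.02 against R1. Atp5a1, a catalytic-part subunit and the brightest probe set, was at 1587 ± 1.95 in P19, 1357 ± 91.3 in the P19-derived cells and 1441 ± 26.4 in R1. Its P19 arrays were the highest, but R1 against P19 had a log2 difference of -0.14 with an adjusted p of 0.274. The 3 genes for subunit c of the rotor, Atp5g1, Atp5g2 and Atp5g3, had log2 differences between R1 and P19 of -0.10, 0.24 and -0.11 (adjusted p = 0.698, 0.0771 and 0.434). Against P19, R1 was higher for Atp5l (0.38, adjusted p = 0.0140) and Atp5h (0.36, adjusted p = 0.0119) and lower for Atp5md (-0.40, adjusted p = 0.0299), Atp5d (-0.39, adjusted p = 0.0296) and Atp5pb (-0.31, adjusted p = 0.0445, named to complete the count). With the alike arrays averaged, the first 4 of these had adjusted p-values of 0.0990, 0.0501, 0.154 and 0.195, and each was lost on leaving out array 3 of P19 (0.0502 for Atp5h) and, except Atp5h, on leaving out array 1 or 2 of R1. On further probe sets of these genes, R1 against P19 had limma adjusted p-values of 0.124 and 0.439 for Atp5md and 0.870 for Atp5pb. Those of Atp5h gave 0.236 and 0.00886, and those of Atp5l 0.00470 to 0.0585. Atp5md was also not past the test with the mean of its probe sets. Atp5k had its highest mean in the P19-derived cells, at 120 ± 0.462 beside 96.7 ± 8.01 in P19 (log2 difference 0.31, adjusted p = 0.0321). This difference was past the test without 3 of the 9 arrays only (adjusted p up to 0.140). R1 was at 106 ± 3.30, and the P19-derived cells against R1 were not past the test (log2 difference 0.18, limma adjusted p = 0.191). In the P19-derived cells against R1, Atp5h was lower (-0.33, adjusted p = 0.0223, up to 0.0789 without array 3 of the P19-derived cells or array 2 or 3 of R1). This was not past the limma test when all probe sets of the gene were averaged (adjusted p = 0.128).

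Of the 8 genes of the symbol rule that are not subunits, 1 was higher and 1 lower in R1 than in P19, where 14.8% of all probe sets were higher and 17.4% lower. Between the P19-derived cells and P19 none passed the limma test (0 higher and 1 lower at an unadjusted p under 0.05). Against R1 4 were higher and 1 lower in the P19-derived cells, where 13.2% of all probe sets were higher and 12.2% lower. Ndufaf6, an assembly factor of complex I, read 42.4, 42.8 and 41.8 in P19, 33.8, 30.8 and 36.5 in the P19-derived cells and 17.4, 18.6 and 26.1 in R1. The lines stood in this order without overlap. Arrays 1 and 2 of R1 lay near the array median, so the measured differences against R1 may be lower limits. R1 was below P19 by 2.08-fold (log2 difference -1.06 ± 0.14, adjusted p = 3.89e-05), and the P19-derived cells were above R1 (0.72 ± 0.14, adjusted p = 0.00135). Without array 1 or array 2 of R1 the difference from P19 was -0.94 or -0.99, under the fold needed for a call. Ndufaf2, another assembly factor, went the other way, at 44.4 ± 11.1 in P19, 42.3 ± 1.20 in the P19-derived cells and 62.7 ± 2.80 in R1 (0.53 ± 0.15, adjusted p = 0.0138). Ndufaf4 was higher in the P19-derived cells than in R1 (0.47, adjusted p = 0.0405), but not with each array centred on its median (0.0555) or without array 1 of P19, 1 or 3 of the P19-derived cells or 3 of R1 (up to 0.154). Cox7a2l, which helps to join complexes III and IV, was at 113 ± 8.63, 121 ± 10.3 and 102 ± 7.14 and past the test in no comparison.

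A list of 34 further assembly factors, whose names fall outside the symbol rule, had 32 measured genes. Of these 18 were lower and 0 higher in R1 than in P19, with a median of -0.35, beside 17.4% lower among all probe sets and 29.0% among the bright ones (limma, adjusted p under 0.05). At an unadjusted p under 0.05 they were 18 lower and 2 higher, and 1 was higher past the test without array 3 of R1. Atpaf2, an assembly factor of the ATP synthase, read 168, 168 and 143 in P19, 158, 119 and 122 in the P19-derived cells and 63.6, 62.9 and 71.2 in R1. The R1 arrays were all below the others (log2 difference from P19 -1.28, adjusted p = 2.49e-06), and the P19-derived cells were above R1 by 1.004 (adjusted p = 3.87e-05). Cox14, a factor for the complex IV subunit MT-CO1, was at 24.9 ± 3.18 in P19, 33.1 ± 7.18 in the P19-derived cells and 15.3 ± 1.28 in R1, and differed between the P19-derived cells and R1 by 1.09 (adjusted p = 0.000100). Its R1 mean lay below the array medians, so this difference can be read only as a lower limit. In the P19-derived cells 3 of the 32 were lower and 1 higher than in P19, and 12 were higher and 1 lower than in R1. Against P19, 10.7% of all probe sets were lower and 8.03% higher in these cells (18.5% and 11.1% of the bright ones). Against R1, 13.2% of all probe sets were higher and 12.2% lower (21.35% and 19.15% of the bright ones). With the alike arrays averaged, 11 of the 32 were lower and 0 higher in R1 than in P19.

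**Figure D5:**
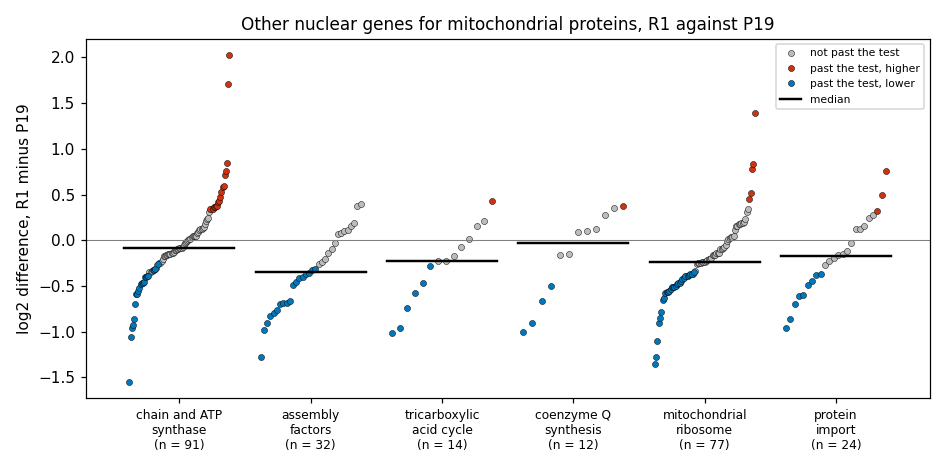
Log2 difference of R1 minus P19 (vertical axis) for the 91 chain and ATP synthase genes and for 5 lists of other nuclear genes for mitochondrial proteins (horizontal axis), each sorted. Each point is 1 gene, colour marks the limma test at an adjusted p under 0.05, and the bar is the median. The assembly factors have a median of -0.35 with 18 of 32 lower and 0 higher, and the median of the chain and ATP synthase genes is -0.08.

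Other nuclear genes for mitochondrial proteins were measured beside these, and their counts for R1 against P19 stand beside 17.4% lower and 14.8% higher among all probe sets and 29.0% and 19.7% among the bright ones. Of 77 genes for the mitochondrial ribosome, which translates the subunits encoded in the organelle, 29 were lower and 5 higher in R1 than in P19 (median -0.23), and with the alike arrays averaged 15 were lower and 4 higher. Mrpl27 was at 115 ± 5.35 in P19, 101 ± 23.5 in the P19-derived cells and 46.5 ± 15.2 in R1 (R1 against P19 -1.35, adjusted p = 0.000136), Mrpl55 had -1.27 and Mrpl38 -1.10, while Mrpl35 was higher in R1 (1.396, adjusted p = 2.61e-07). In the P19-derived cells against P19, 14 of the 77 were lower and 0 higher (limma, and 30 lower and 0 higher at an unadjusted p under 0.05), where 10.7% of all and 18.5% of the bright probe sets were lower. The 14 became 6, 5 and 23 without array 1, 2 or 3 of P19, 8 without array 3 of the P19-derived cells, and 5 with the alike arrays averaged. Of 24 genes for import of proteins, 9 were lower and 3 higher in R1 than in P19 (median -0.18). Of 14 genes of the tricarboxylic acid cycle, 6 were lower and 1 higher (median -0.23), with Suclg2, a subunit of succinyl-CoA ligase, at 409 ± 20.2 in P19, 238 ± 34.3 in the P19-derived cells and 204 ± 19.3 in R1 (-1.01, adjusted p = 1.34e-05). Of 12 genes of coenzyme Q synthesis, 4 were lower and 1 higher, with Coq8b at -1.003 (adjusted p = 3.57e-05).

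Among 24 regulators of mitochondrial biogenesis, 6 were higher and 6 lower in R1 than in P19. Among all probe sets 14.8% were higher and 17.4% lower, and among the bright ones 19.7% and 29.0%. Esrrb, an orphan nuclear receptor of the pluripotency network, read 8.56, 10.7 and 8.52 in P19, 34.8, 29.8 and 32.7 in the P19-derived cells and 237, 235 and 218 in R1, with the lines in that order and no overlap (R1 against P19 4.64, adjusted p = 9.09e-12). Myc rose in R1 (1.44, adjusted p = 0.000405). Tfb1m, which modifies the ribosomal RNA of the organelle, was at 168 ± 5.17 in P19, 136 ± 8.95 in the P19-derived cells and 79.1 ± 7.38 in R1 (-1.09, adjusted p = 1.51e-06). The next genes were chosen after their values were seen. Tfam, which packages mitochondrial DNA and starts its transcription, was lower in R1 (-0.61, adjusted p = 0.000258), and Nrf1 was higher (0.57, adjusted p = 0.00118) and was not past the test between the P19-derived cells and P19 (adjusted p = 0.992). Hif1a was lower in the P19-derived cells than in P19 (-0.77, adjusted p = 0.000123), and R1 and P19 were not told apart for it (-0.10, adjusted p = 0.527).

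The carriers that exchange ATP for ADP across the inner membrane were listed together with uncoupling proteins and the mitochondrial creatine kinases. Of the 11 genes measured, 3 were higher and 0 lower in R1 than in P19 by limma, as also at an unadjusted p under 0.05. Among all probe sets 14.8% were higher and 17.4% lower by the adjusted p, and among the bright ones 19.7% and 29.0%. Slc25a31, the carrier isoform known from germ cells and ES cells, read 8.64, 8.49 and 8.67 in P19, 21.5, 21.0 and 18.3 in the P19-derived cells and 18.1, 18.5 and 16.6 in R1. Its P19 arrays were well below the array median and those of the stem cell lines near it (R1 against P19 1.04, adjusted p = 1.75e-06, and P19-derived cells against P19 1.23, adjusted p = 1.31e-06). Ckmt1, the mitochondrial creatine kinase, was at 24.5 ± 4.66 in R1 and below the array median in both other lines (R1 against P19 1.39, adjusted p = 1.62e-06). For Slc25a31, Ckmt1 and Esrrb, too, the differences against P19 are lower limits, as its arrays lay below the array median. Chosen after their values were seen, Slc25a4 was higher in R1 than in P19 (0.71, adjusted p = 2.92e-05), and Slc25a5 was lower in the P19-derived cells than in P19 (-0.74, adjusted p = 0.000406) at 555 ± 42.1 against 926 ± 25.4.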

How the data were processed

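Total RNA of the 9 samples was hybridised to the arrays, and the deposited intensity values are the authors' Robust Multichip Average (RMA) intensities on the linear scale, whose version and probe set build are not given in the sources used here. The log2 of these values was fitted with limma 3.58.1 in R 4.3.3 (lmFit, eBayes, 1 mean per line), without further scaling or a filter, and p-values were adjusted by Benjamini-Hochberg over all 28853 probe sets. Tables were made with pandas 2.3.3 in Python 3.11.15. The platform's annotation gave 21789 probe sets 1 symbol, 1621 several and 5443 none. Of the 18 members with several probe sets, all probe sets gave the same result in 12 (R1 against P19), 17 (P19-derived cells against P19) and 13 (P19-derived cells against R1), and none gave opposite directions past the test. The fit was tested on simulated data. Promoter windows are RefSeq's (GRCm38.p6).

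The members, the lists, the core grouping of complex I and the tests were chosen with earlier results of these data known. Named are the called members, in each complex and comparison the 2 largest rises and 2 largest falls past the test, the brightest member of each complex, the isoform sets, the Sdh genes, Cycs, Cyc1 and, of the other lists, up to 4 called genes with the smallest p. Ndufa3, Ndufa7, Ndufb2, Ndufs3, Ndufs7, Ndufv2 and Atp5pb were named after their values were seen unless this rule names them. Arrays with the same number did not pair: their deviations from the line means correlated between -0.223 and 0.040 over 9 pairs. The alternatives were median centring, quantile normalization, a filter on dim probe sets, the mean of a gene's probe sets, a variance trend, the replicate block, each array left out, the methods' one-way test and the averaged arrays. The number of arrays limits the precision.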

Additional observations from a re-analysis of the deposited data

How the results depend on the processing

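Of 91 genes, the number past the test in the P19-derived cells against P19 was the least stable: 12 higher and 2 lower with quantile normalization, and 2 to 7 higher and 2 to 7 lower on leaving out each array (without array 2 of the P19-derived cells 2 were higher, and without array 1 of P19 2 were lower and without array 3 of P19 7). In the P19-derived cells against R1, 6 to 12 were lower when each array was left out. With arrays 1 and 2 of R1 and of P19 averaged, 10 higher and 12 lower were left in R1 against P19 (1 called lower), 3 and 2 in the P19-derived cells against P19, and 10 and 7 against R1. Calls lower in R1 against P19 were 1 to 4 on leaving out each array (1 without array 1 of R1, 4 without array 3 of P19, which adds Sdhb and Uqcr10), and those in the P19-derived cells against P19 were 0 to 1 in each direction. The methods' one-way test after adjustment called 1 member higher in R1 than in P19 and 0 in the P19-derived cells, where limma called 2 and 1. The cause of these changes was not tested, except that fewer arrays entered the fits that left out or averaged arrays.

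For R1 against P19, the median of all members was -0.0162 with quantile normalization and -0.1077 to -0.0509 on leaving out arrays. Complex II was at -0.2089 and complex III at -0.3366 with quantile normalization, and complex III at -0.4861 to -0.3533 without single arrays. Complex IV was at 0.2548 with centred arrays, 0.3832 over the brighter probe sets, 0.2501 with all probe sets of a gene, 0.3080 with averaged arrays and 0.2284 to 0.3065 without single arrays. The ATP synthase was at -0.0131 (quantile), -0.0354 (averaged arrays) and -0.1427 to -0.0383 (single arrays left out). For the P19-derived cells against P19, the median of all members was -0.0621 (centred), 0.0471 (quantile) and -0.0247 to 0.0238 (arrays left out), so its sign was not settled. Complex II was at 0.0541 and the ATP synthase at 0.0775 (quantile), complex III at -0.2426 (all probe sets of a gene), and complex IV at 0.0921 (centred), 0.2235 (brighter probe sets) and 0.0694 to 0.1721 (arrays left out). For the P19-derived cells against R1, all members were at 0.0168 (centred) and 0.0126 to 0.0395, complex III at -0.0756 to 0.1921, complex IV at -0.0376 (all probe sets of a gene) and -0.1270 to -0.0733, and the ATP synthase at -0.0347 to 0.1123 (arrays left out).

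With the replicate block 17 members were higher and 18 lower in R1 than in P19, 4 and 4 in the P19-derived cells than in P19, and 13 and 11 than in R1. The array numbers were not taken to pair the arrays. Under every limma alternative, 17 of 28 named members past the test stayed past it for R1 against P19, 4 of 10 (Cox7a1, Ndufa4l2, Ndufv3 and Uqcrfs1) for the P19-derived cells against P19, and 13 of 21 against R1. No result changed its sign while called.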

Other observations

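The annotation gives 6 further probe sets of the symbol rule to more than 1 gene, and they were left out of all counts. Cox7c, a complex IV subunit, shares 3 of them with Gm12338, and on all 3 the R1 values were higher than those of P19 without overlap. The brightest read 346, 352 and 344 in P19, 401, 433 and 392 in the P19-derived cells and 496, 509 and 506 in R1 (R1 against P19 0.54, limma adjusted p = 0.000304), and the others had log2 differences of 0.44 and 0.41 (adjusted p = 0.0126 and 0.0107). All 3 were lower in the P19-derived cells than in R1 (adjusted p = 0.0417, 0.0217 and 0.0210). Ndufb4, a complex I subunit, shares 2 with Ndufb4b. Neither was past the test between R1 and P19 (adjusted p = 0.570 and 0.228), and the brighter was lower in the P19-derived cells than in R1 (-0.42, adjusted p = 0.00736). Which gene of a shared probe set gave the signal cannot be told apart.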
